A study of Mus musculus with 19 samples.

Results

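The DEAD and DEAH box RNA helicases were examined in dendrites severed from mouse hippocampal neurons. Members were all genes on the array whose symbol begins with Ddx or Dhx followed by a digit, without the sex-linked pair Ddx3x and Ddx3y. This gave 50 of 18193 genes, 34 named Ddx and 16 named Dhx, measured by 110 probe sets. Each gene is represented by the median over those of its probe sets that carry 1 symbol.

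Neurons of Balb/c and C57BL/6 embryos, 2 inbred strains taken at E18, were grown untreated for 14 days as dispersed primary cultures. The somata were removed with a glass pipette, and 1 pool of dendrites was hybridised to each of 19 Affymetrix mouse arrays. Pools of 100, 200 and 400 dendrites numbered 2, 1 and 2 among the 5 Balb/c arrays and 4, 5 and 5 among the 14 of C57BL/6. The labels call the pools biological replicates without saying whether they came from separate cultures, and the p-values therefore speak only to the spread from pool to pool, which may be technical. The study states that axons could not be told from dendrites by shape, that each pool was gathered over many cells, and that the RNA was amplified in several rounds.

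Helicases of these families bind RNA, hydrolyse ATP and open short duplexes or strip proteins from RNA. The family names come from the amino acid letters of a conserved ATPase motif, Asp-Glu-Ala-Asp in DEAD box and Asp-Glu-Ala-His in DEAH box proteins. Between them they drive each step of an RNA's life, from splicing and export in the nucleus and ribosome assembly in the nucleolus to translation, storage in granules and decay in the cytoplasm. In neurons, several are known as components of the granules that carry mRNA into dendrites.

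In Balb/c dendrites, 14 of the 50 helicase genes differed from C57BL/6 dendrites at an adjusted p under 0.05, 9 higher and 5 lower (limma over all 18193 genes, Benjamini-Hochberg adjustment). The 5 that were lower were Dhx15, Ddx17 and Ddx5, which act in splicing, Dhx30, which acts in mitochondria, and Ddx59. On the log2 scale and relative to the median gene, they differed by -1.65 in Ddx5 to -3.79 in Dhx15. All 5 lay under a mark of high background on every Balb/c array, so that the size of these differences depends on the background there. The 9 that were higher were Ddx19b, Ddx28, Ddx18, Dhx37, Dhx58, Dhx34, Dhx8, Ddx51 and Dhx38, by 0.41 to 1.31 on the same scale. All but Dhx34 and Dhx37 of these lay under the same mark on all 19 arrays, and Dhx37 passed it on 1. With the number format of the deposited columns as a block, 1 of the 14, Dhx15, was called. The share called, 28%, lay below the 32.5% of all genes that were called. For the higher calls the share was 18% of the helicases against 21.1% of all genes, and for the lower calls 10% against 11.4%. With the brightest probe set in place of the median, 22 of the 50 were called, against 34.6% of all genes. Less RNA per dendrite and fewer dendrites that carry an RNA cannot be told apart in pools. At an adjusted p under 0.001, the threshold of the study, Dhx15 and Dhx30 remained in the limma fit, against 3.85% of all genes. With the kind of test named in the study's methods in place of limma, Dhx15 passed and Dhx30 did not, and 76 of all 18193 genes passed. The study itself describes only a small number of genes that differed between these strains at that threshold.

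All differences are in log2 units, Balb/c minus C57BL/6. That of the median gene was 0.216, which was subtracted from every difference called relative, while the tests used the deposited values. A p-value printed beside a relative difference is that of the difference as deposited, and the relative difference itself was not tested. The median helicase had a difference of -0.15, or -0.36 relative to the median gene. With the brightest probe set it was 0.03, or -0.15 relative, and with the number format as a block -0.04, or -0.17 relative. A total of 33 of the 50 lay below the median gene and 17 above it, against 50% of all genes on either side.

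Some features of the arrays touch these results. Earlier results of these data had singled out 2 C57BL/6 arrays (200 dendrites replicate 1 and 400 dendrites replicate 1) and the Balb/c array of 200 dendrites, here called the arrays between the strains. Over all genes, the Balb/c pool of 200 had a mean correlation of 0.68 within its strain and 0.78 across strains, and C57BL/6 pool 200, replicate 1, had 0.76 within and 0.78 across. C57BL/6 pool 400, replicate 1, correlated at 0.78 within and 0.72 across, and Balb/c pool 400, replicate 2, which is not among the 3, stood much alike at 0.77 and 0.72. Results that rest on the 3 arrays are given with and without them. Leaving out arrays that lie near the other strain widens the gap between the strains by construction, and values without them are a description. All 5 Balb/c columns and 4 of the C57BL/6 columns were deposited in a number format with more decimals than the other 10, all C57BL/6, and this was treated as a technical batch. Control probe sets for the 3′ minus the 5′ end of Actb differed by -0.69 to 2.27 in Balb/c, with a median of 0.98, and by 1.17 to 5.56 in C57BL/6, with a median of 4.17. Among the C57BL/6 arrays, the values of the 2 arrays between the strains were 1.17 and 1.65, and those of the others were 3.27 or more. For Gapdh the medians were 3.37 in Balb/c and 3.25 in C57BL/6. The part of this difference in the results was not tested.

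The 5′ flanks of the 3 splicing helicases that were lower in Balb/c are shown because these genes were called in the same direction. Each is the 250 bases before the most upstream start that RefSeq lists for the gene (GRCm38.p6, gene strand, 5′ to 3′), with matches to a CCAAT box (CCAAT) or a GC box (GGGCGG), on either strand, in capitals.
Dhx15, chr5:52190547-52190796, minus strand: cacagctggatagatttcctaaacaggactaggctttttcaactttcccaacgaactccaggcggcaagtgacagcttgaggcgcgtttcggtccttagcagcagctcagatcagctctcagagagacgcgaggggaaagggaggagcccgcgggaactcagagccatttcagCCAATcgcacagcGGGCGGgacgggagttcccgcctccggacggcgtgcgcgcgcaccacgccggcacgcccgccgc
Ddx17, chr15:79546742-79546991, minus strand: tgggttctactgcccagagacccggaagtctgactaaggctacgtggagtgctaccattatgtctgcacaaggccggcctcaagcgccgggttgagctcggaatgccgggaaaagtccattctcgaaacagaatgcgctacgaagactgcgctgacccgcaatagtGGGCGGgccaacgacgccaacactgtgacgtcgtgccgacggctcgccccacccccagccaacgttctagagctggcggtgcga
Ddx5, chr11:106789186-106789435, minus strand: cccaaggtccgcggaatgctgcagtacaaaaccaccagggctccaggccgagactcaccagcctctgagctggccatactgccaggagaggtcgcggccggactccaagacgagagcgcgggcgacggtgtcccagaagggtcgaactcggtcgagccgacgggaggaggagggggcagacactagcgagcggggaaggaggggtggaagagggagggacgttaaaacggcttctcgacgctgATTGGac
Dhx15 holds 1 CCAAT box and 1 GC box, Ddx17 holds 1 GC box, and Ddx5 holds 1 CCAAT box on the opposite strand. None of these 3 flanks holds a TATA box (TATAAA) or an E-box (CACGTG). At other starts that RefSeq lists, Ddx17 has a window with 1 TATA box, and Ddx5 has a window with 1 E-box and another with 1 TATA box and 4 GC boxes. The motifs searched do not overlap one another in letters, but matches to the same motif can. In the Ddx5 window with 4 GC boxes, 1 stretch (GGGCGGGCGG) holds matches that share letters, so the 4 are not all separate sites.

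Flanks were given for 44 of the 50 helicases, in 55 windows. A GC box was in 54.5% of these windows and in 32.7% of all 32851 windows of the same length, and a CCAAT box in 43.6% and 33.8%. A TATA box was in 7.27% of the helicase windows and 12.4% of all, and an E-box in 10.9% and 6.02%. The helicase windows were richer in G and C, with a median of 60% against 52.4%. Of the helicases with a window, a GC box was present in 4 of the 5 lower, 4 of the 7 higher and 21 of the 32 not called. A TATA box was present in 2 of the 5 lower, 0 of the 7 higher and 2 of the 32 not called. A gene counts here if any of its windows holds the motif, so genes with more windows have more chances. The 2 lower genes were Ddx17 and Ddx5, with 2 and 3 windows, and neither held it in the flank shown. The shares of all windows are per window and cannot be set beside these counts per gene.

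The splicing helicases spanned the widest range of the family. Of 11 members, 3 were lower in Balb/c and 2 higher, against 11.4% and 21.1% of all genes, and 6 were not called. Relative differences of the group ran from -3.79 to 0.73. DEAH box proteins of this group remodel the spliceosome at set steps, while the DEAD box pair Ddx5 and Ddx17 also serve as cofactors in transcription and microRNA processing.

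Dhx15, on chromosome 5, releases the intron lariat and takes the spent spliceosome apart. Its levels in Balb/c were 5.39 and 4.83 in the pools of 100, 7.32 in the pool of 200, and 5.89 and 5.79 in the pools of 400. C57BL/6 arrays ran from 6.42 to 10.48 with a median of 9.70. The means were 5.84 ± 0.923 in Balb/c (SD, n = 5) and 9.41 ± 1.05 in C57BL/6 (SD, n = 14), a relative difference of -3.79 with an SE of 0.48 (limma, adjusted p = 8.36e-05). The groups overlapped through only 2 of the arrays between the strains, the Balb/c pool of 200 at 7.32 and the C57BL/6 pool of 200, replicate 1, at 6.42. Without the 3 such arrays, Balb/c values ran from 4.83 to 5.89 and C57BL/6 values from 8.71 to 10.48. Dhx15 was lower on both of its probe sets, with differences as deposited of -4.65 and -2.49, and in the pools of 100 alone (-4.64, limma adjusted p = 0.00417) and the pools of 400 alone (-3.66, limma adjusted p = 0.00133). It was the 1 helicase called with the number format as a block (-2.61, limma adjusted p = 0.0244), where 1.92% of all genes were called. Within the format of more decimals alone, the same difference was not called (limma, adjusted p = 0.329). The C57BL/6 mean was 8.45 ± 1.52 in that format (SD, n = 4) and 9.80 ± 0.494 in the other (SD, n = 10).

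Ddx17, on chromosome 15, is the close paralogue of Ddx5. Its levels in Balb/c were 8.48 and 7.37 in the pools of 100, 9.03 in the pool of 200, and 7.0 and 8.43 in the pools of 400. In C57BL/6 they had a lowest value of 8.61, a median of 10.11 and a highest value of 11.24. The means were 8.06 ± 0.845 in Balb/c (SD, n = 5) and 9.95 ± 0.752 in C57BL/6 (SD, n = 14), a relative difference of -2.11 with an SE of 0.38 (limma, adjusted p = 0.00113). The pool of 200 was the highest Balb/c array and the only 1 inside the C57BL/6 range. Of its 3 probe sets, 2 were lower and the other was not called at -1.17 (limma, adjusted p = 0.0647).

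Ddx5, on chromosome 11, had levels in Balb/c of 6.54 and 6.53 in the pools of 100, 8.36 in the pool of 200, and 6.76 and 6.27 in the pools of 400. The C57BL/6 median was 8.34, with 7.0 as the lowest and 9.29 as the highest value. The means were 6.89 ± 0.84 in Balb/c (SD, n = 5) and 8.33 ± 0.653 in C57BL/6 (SD, n = 14), a relative difference of -1.65 with an SE of 0.35 (limma, adjusted p = 0.00414). In 4 of 5 Balb/c arrays Ddx5 lay below every C57BL/6 array, and in the pool of 200 it was at the C57BL/6 mean. Its 6 probe sets did not move alike: 3 were lower, at -1.57, -1.67 and -1.88 as deposited, and 3 were not called, at -0.94, -0.33 and 0.57.

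The higher splicing helicases were DEAH box genes. Dhx8, which frees the mature mRNA from the spliceosome, had 6.61 and 7.32 in the Balb/c pools of 100, 8.36 in the pool of 200, and 7.54 and 7.74 in the pools of 400. In C57BL/6 the lowest value was 5.60, the median 6.42 and the highest 7.50. The relative difference was 0.73 with an SE of 0.33 (limma, adjusted p = 0.0312), and the Balb/c pool of 200 lay highest. Dhx38, which acts at the second catalytic step, averaged 6.35 ± 0.444 in Balb/c (SD, n = 5) and 5.72 ± 0.395 in C57BL/6 (SD, n = 14). The difference as deposited was 0.63 (limma, adjusted p = 0.0445), or 0.41 relative to the median gene. Dhx38 was the weakest of the 14 calls and was lost in 13 of the 19 fits that left out 1 array.

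The other 6 splicing members were not called. The mean level of Dhx16, which starts the first catalytic step, was 4.8 in Balb/c and 5.40 in C57BL/6, and that of Ddx41 was 5.42 and 5.93. Ddx46 and Ddx42, which act with the branch site particle, had means of 7.23 and 6.02 in Balb/c, against 7.59 and 5.98 in C57BL/6. Ddx23, part of the tri-snRNP, averaged 6.12 in Balb/c and 6.05 in C57BL/6, and Dhx35 averaged 5.30 and 4.83.

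**Figure D1:**
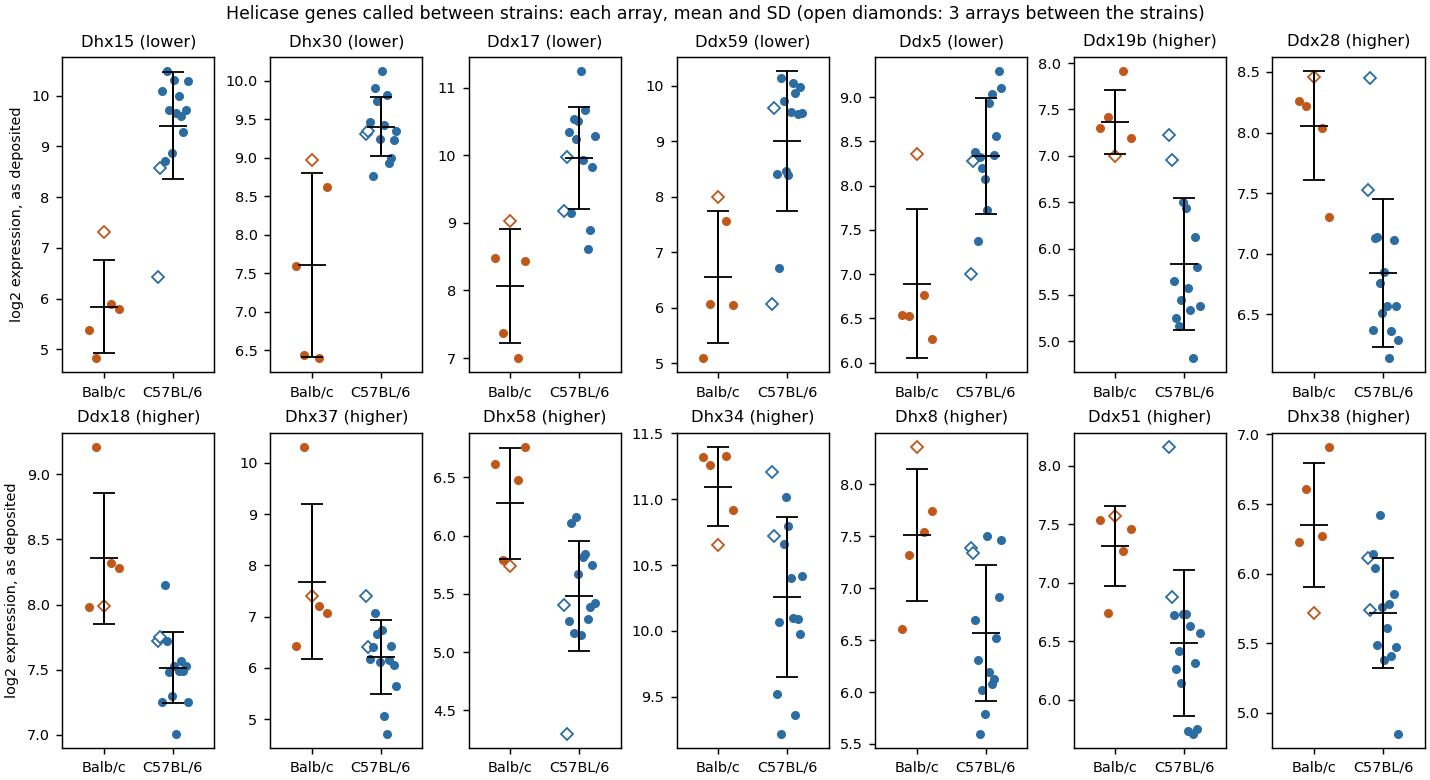
Deposited log2 expression (y axis) of the 14 called helicase genes on each array, Balb/c (orange, n = 5) beside C57BL/6 (blue, n = 14), with bars for the mean and SD and open diamonds for the 3 arrays between the strains; each panel has its own y range. Dhx15 shows the widest gap, with Balb/c at 4.83 to 7.32 and C57BL/6 at 6.42 to 10.48.

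No helicase had groups that did not overlap over all 19 arrays, against 1.21% of all genes. Without the 3 arrays between the strains, 9 of the 50 did not overlap, against 15.1% of all genes, and 7 of these 9 were among the 14 calls. They were Dhx15, Ddx17, Dhx30 and Ddx5 on the lower side and Ddx19b, Ddx28 and Ddx51 on the higher side. The other two were Ddx1 and Ddx39b. The fit without these arrays called the 14 with the same sign and 8 more helicases, which made 22 (11 higher and 11 lower), against 43.6% of all genes.

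The mitochondrial pair differed in opposite directions. Dhx30, on chromosome 9, is a component of mitochondrial RNA granules needed for assembly of the mitochondrial ribosome. Its levels in Balb/c were 7.60 and 6.44 in the pools of 100, 8.97 in the pool of 200, and 6.40 and 8.62 in the pools of 400, while in C57BL/6 the lowest value was 8.76, the median 9.35 and the highest 10.12. The means were 7.61 ± 1.19 in Balb/c (SD, n = 5) and 9.40 ± 0.383 in C57BL/6 (SD, n = 14), a relative difference of -2.01 with an SE of 0.34 (limma, adjusted p = 0.000727). The Balb/c arrays were spread widely, and only the pool of 200 reached the C57BL/6 range. Of its 4 probe sets 3 were lower, at -1.08, -2.59 and -3.43 as deposited. The other, the only 1 whose identifier carries no suffix for probes shared between transcripts, was not called at -0.19 (limma, adjusted p = 0.659).

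Ddx28, which acts in assembly of the large mitochondrial ribosomal subunit, has 1 probe set. Its levels in Balb/c were 8.26 and 8.22 in the pools of 100, 8.46 in the pool of 200, and 8.04 and 7.30 in the pools of 400. C57BL/6 arrays ran from 6.14 to 8.45 with a median of 6.67. Relative to the median gene, it differed by 1.0 with an SE of 0.30 (limma, adjusted p = 0.0045). The highest C57BL/6 values, 8.45 and 7.53, were those of the 2 C57BL/6 arrays between the strains, and without the 3 such arrays C57BL/6 reached 7.14 and Balb/c began at 7.30.

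The export group held 1 call among 4 members, against 32.5% of all genes. Ddx19b, which strips export factors from mRNA at the cytoplasmic face of the nuclear pore, had 7.30 and 7.42 in the Balb/c pools of 100, 7.0 in the pool of 200, and 7.91 and 7.19 in the pools of 400. The C57BL/6 median was 5.61, with 4.82 as the lowest and 7.22 as the highest value. The relative difference was 1.31 with an SE of 0.33 (limma, adjusted p = 0.00174), the smallest p among the higher genes. Its probe sets opposed each other: 1 was higher, with means of 8.17 in Balb/c and 5.83 in C57BL/6 (limma, adjusted p = 0.00187), 1 was lower, with means of 7.77 and 8.86 (limma, adjusted p = 0.0309), and another was not called at 0.60. The direction of Ddx19b therefore rests on the choice of probe set, and with the brightest one in place of the median its difference was -1.10 (limma, adjusted p = 0.0301).

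The other export helicases were not called. Ddx39b and its paralogue Ddx39a load export factors onto spliced mRNA. Ddx39b averaged 6.08 in Balb/c and 6.6 in C57BL/6, and Ddx39a averaged 5.79 and 6.57. Ddx25, known for a role in male germ cells, averaged 8.30 in Balb/c and 9.24 in C57BL/6. Among the partners of export on a list of 15 genes, 14 were measured, of which 3 were lower and 1 was higher, against 11.4% and 21.1% of all genes. The lower ones were Thoc1 and Thoc7 of the THO complex, at relative differences of -1.34 and -1.0, and Sarnp at -1.44, and the higher one was Thoc6 at 0.40 (limma, adjusted p = 0.00914 to 0.0482).

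Ribosome biogenesis was the largest group, with 16 members. Of these, 3 were higher in Balb/c and 0 lower, against 21.1% and 11.4% of all genes, and 13 were not called at an adjusted p under 0.05. Helicases of this group act in the nucleolus, where they release small nucleolar RNAs from pre-ribosomal RNA and refold it. Ddx18, on chromosome 1, had 7.98 and 9.21 in the Balb/c pools of 100, 7.99 in the pool of 200, and 8.32 and 8.28 in the pools of 400, against a lowest value of 7.01, a median of 7.51 and a highest value of 8.15 in C57BL/6. Relative to the median gene, it differed by 0.62 with an SE of 0.22 (limma, adjusted p = 0.00602), and 2 of its 3 probe sets were higher.

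Dhx37, which acts in maturation of the small subunit, had 6.43 and 10.31 in the Balb/c pools of 100, 7.40 in the pool of 200, and 7.20 and 7.07 in the pools of 400. In C57BL/6 the lowest value was 4.72, the median 6.29 and the highest 7.41. The relative difference was 1.25 with an SE of 0.46 (limma, adjusted p = 0.0183). The second Balb/c pool of 100 decided this call: without it the difference as deposited was 0.81 in place of 1.46 and no longer passed (limma, adjusted p = 0.105).

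Ddx51, which acts in maturation of the large subunit RNA, had 7.54 and 6.74 in the Balb/c pools of 100, 7.57 in the pool of 200, and 7.27 and 7.46 in the pools of 400. C57BL/6 arrays ran from 5.71 to 8.16 with a median of 6.50. Relative to the median gene, it differed by 0.62 with an SE of 0.30 (limma, adjusted p = 0.0353). The highest value of all was the C57BL/6 pool of 200, replicate 1, 1 of the arrays between the strains, and the next C57BL/6 values were 6.88 and 6.73.

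The paralogues Ddx21 and Ddx50, nucleolar proteins that bind ribosomal RNA, averaged 6.33 and 6.67 in Balb/c, against 7.07 and 7.43 in C57BL/6, and were not called as genes. A probe set of Ddx50 was lower all the same, with means of 6.75 in Balb/c and 9.33 in C57BL/6 (limma, adjusted p = 0.00203). Mean levels of Ddx47 were 8.94 in Balb/c and 9.58 in C57BL/6, of Ddx55 6.21 and 6.65, of Ddx49 6.03 and 6.27, and of Ddx56 6.40 and 6.63. Those of Dhx33 were 6.78 in Balb/c and 6.95 in C57BL/6, of Ddx54 7.04 and 7.19, of Ddx52 5.41 and 5.44, and of Ddx27 6.48 and 6.46. The 3 uncalled members that lay above the median gene were Ddx10 at 7.52 in Balb/c and 7.18 in C57BL/6, Ddx24 at 7.48 and 6.86, and Ddx31 at 7.27 and 6.61.

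Cytoplasmic helicases of translation, storage and decay are the members most often linked to dendritic mRNA. Of these 6, 1 was called, against 32.5% of all genes. Dhx34, a factor of nonsense-mediated decay, had 11.32 and 11.26 in the Balb/c pools of 100, 10.65 in the pool of 200, and 11.33 and 10.92 in the pools of 400. The C57BL/6 median was 10.25, with 9.22 as the lowest and 11.21 as the highest value. The relative difference was 0.62 with an SE of 0.29 (limma, adjusted p = 0.0299), and the pool of 200 was the lowest Balb/c array.

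The other 5 of this group were not called. Ddx6, which holds translationally silent mRNA in granules and processing bodies, averaged 7.36 in Balb/c and 7.14 in C57BL/6. Ddx1, a component of neuronal RNA transport granules, averaged 6.18 and 6.78, and Dhx36, which unwinds G-quadruplexes and is known to bind RNA in dendrites, averaged 6.49 and 7.36. Dhx9 averaged 6.38 in Balb/c and 6.42 in C57BL/6, and Dhx29, which helps the small ribosomal subunit scan structured leaders, averaged 7.95 and 8.29. Without the 3 arrays between the strains, the differences as deposited were -0.90 for Ddx1 and -1.20 for Dhx36. Leaving these arrays out widens the gap by construction, and that fit called 43.6% of all genes, so the values are a description. Over all arrays the brightest probe set of Dhx36 went the other way, with means of 9.78 in Balb/c and 8.22 in C57BL/6 (limma, adjusted p = 0.00718). Its other probe sets were not called, at -0.41 and -0.94.

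Of the sensors of viral RNA, Dhx58, a regulator without the signalling domain of its relatives, had 6.61 and 5.79 in the Balb/c pools of 100, 5.74 in the pool of 200, and 6.48 and 6.76 in the pools of 400. In C57BL/6 the lowest value was 4.30, the median 5.41 and the highest 6.16. Relative to the median gene, it differed by 0.58 with an SE of 0.26 (limma, adjusted p = 0.0238), and 3 of the 5 Balb/c arrays lay above every C57BL/6 array. Ddx58, the sensor RIG-I, averaged 6.43 in Balb/c and 6.35 in C57BL/6, and Ddx60 averaged 8.64 and 8.43. The brightest probe set of Ddx58 was higher, with means of 11.39 in Balb/c and 10.65 in C57BL/6 (limma, adjusted p = 0.0325), and its others were not called. Of the 11 measured partners of this pathway, among 13 on the list, only Ifit3 was called, against 32.5% of all genes. Ifit3, an interferon-induced gene, had means of 8.10 ± 0.507 in Balb/c (SD, n = 5) and 7.04 ± 0.681 in C57BL/6 (SD, n = 14).

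The 6 members with other or less known roles held 1 call, against 32.5% of all genes. Ddx59, on chromosome 1, is known for a role in ciliary signalling and has 1 probe set here. Its levels in Balb/c were 5.09 and 6.07 in the pools of 100, 8.0 in the pool of 200, and 7.56 and 6.05 in the pools of 400. C57BL/6 arrays ran from 6.06 to 10.15 with a median of 9.53. The means were 6.55 ± 1.19 in Balb/c (SD, n = 5) and 9.00 ± 1.26 in C57BL/6 (SD, n = 14), a relative difference of -2.66 with an SE of 0.58 (limma, adjusted p = 0.00354). The low C57BL/6 arrays were the pool of 200, replicate 1, at 6.06 and the pool of 100, replicate 2, at 6.71, both of the long number format. In that format the C57BL/6 mean was 7.70 (n = 4), against 9.52 in the short format (n = 10).

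The remaining members were not called. Ddx20, a core part of the SMN complex that assembles spliceosomal particles, averaged 9.24 in Balb/c and 8.80 in C57BL/6. Ddx11, a DNA helicase of sister chromatid cohesion, averaged 6.86 and 6.65. Dhx32 averaged 7.03 in Balb/c and 6.53 in C57BL/6, Dhx40 averaged 6.72 and 7.26, and Dhx57 averaged 8.75 and 9.24. The germ cell helicases Ddx4 (Vasa in the fly) and Ddx43 averaged 4.56 and 5.37 in Balb/c, against 4.70 and 6.26 in C57BL/6.

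**Figure D2:**
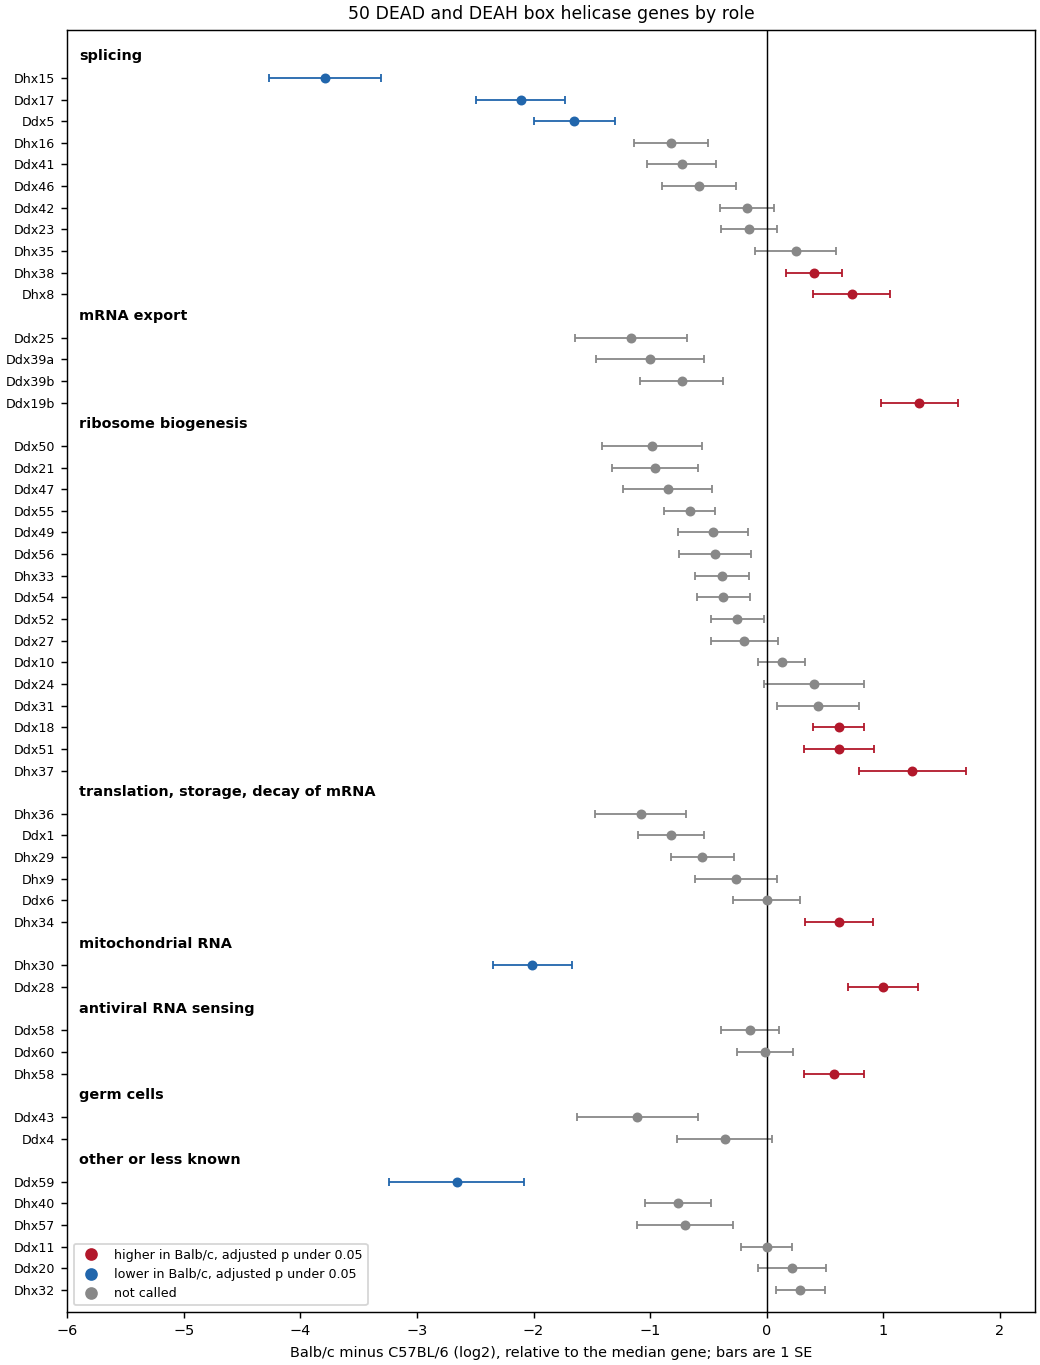
Difference between strains of each of the 50 helicase genes (x axis, log2, Balb/c minus C57BL/6, relative to the median gene), grouped by role down the page, with bars of 1 SE; red marks genes higher and blue genes lower in Balb/c at an adjusted p under 0.05. The lower calls reach -3.79 in Dhx15, while no higher call passes 1.31.

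Probe sets of the same gene often disagreed. Of the 110 probe sets, 19 were higher in Balb/c and 21 lower, 36.4% in all, against 32.9% of the 45037 probe sets tested (21.3% higher and 11.6% lower). Among the 33 genes with 2 or more probe sets, 21 had differences of both signs, and 5 had calls in both directions: Ddx19b, Ddx39b, Ddx49, Ddx52 and Ddx6. A further view of this is that 13 of the 36 genes not called had at least 1 called probe set. The share of all genes with such disagreement is not given here, so these counts do not set the helicases apart.

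For Ddx52, which has 2 probe sets, 1 averaged 7.41 in Balb/c and 6.30 in C57BL/6 (limma, adjusted p = 0.00535), and the other 3.41 and 4.58 (limma, adjusted p = 0.0178). In Ddx6, 1 of 4 averaged 7.81 in Balb/c and 6.67 in C57BL/6, another 5.69 and 7.13, and the brightest, at 10.29 and 9.93, was not called. In Ddx49 the opposed probe sets averaged 7.52 and 5.57 in Balb/c, against 6.43 and 7.06 in C57BL/6. In Ddx39b they averaged 9.88 and 6.50 in Balb/c, against 9.06 and 7.87 in C57BL/6. The median over probe sets left all 4 of these genes uncalled. Dhx36 and Ddx54 each had a probe set that was higher, by 1.56 and 1.53, beside others that were not called at differences down to -0.94 and -1.41.

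The direction of the calls went with the kind of probe set. Identifiers that end in s_at, x_at or a_at mark sets with probes that can match more than 1 transcript or gene. Of the 35 helicase probe sets of this kind, 37.1% were lower and 8.57% higher, against 21.3% lower and 16.4% higher among all 8955 of the kind. Of the other 75, 10.7% were lower and 21.3% higher, against 9.15% and 22.5% among all 36082. With the first kind left out, Dhx15 and Ddx59 were the lower genes that kept their call, Ddx17 and Ddx5 had differences as deposited of -1.17 and -0.94 (limma, adjusted p = 0.0614 and 0.131), and Dhx30 had -0.19 (limma, adjusted p = 0.646).

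**Figure D3:**
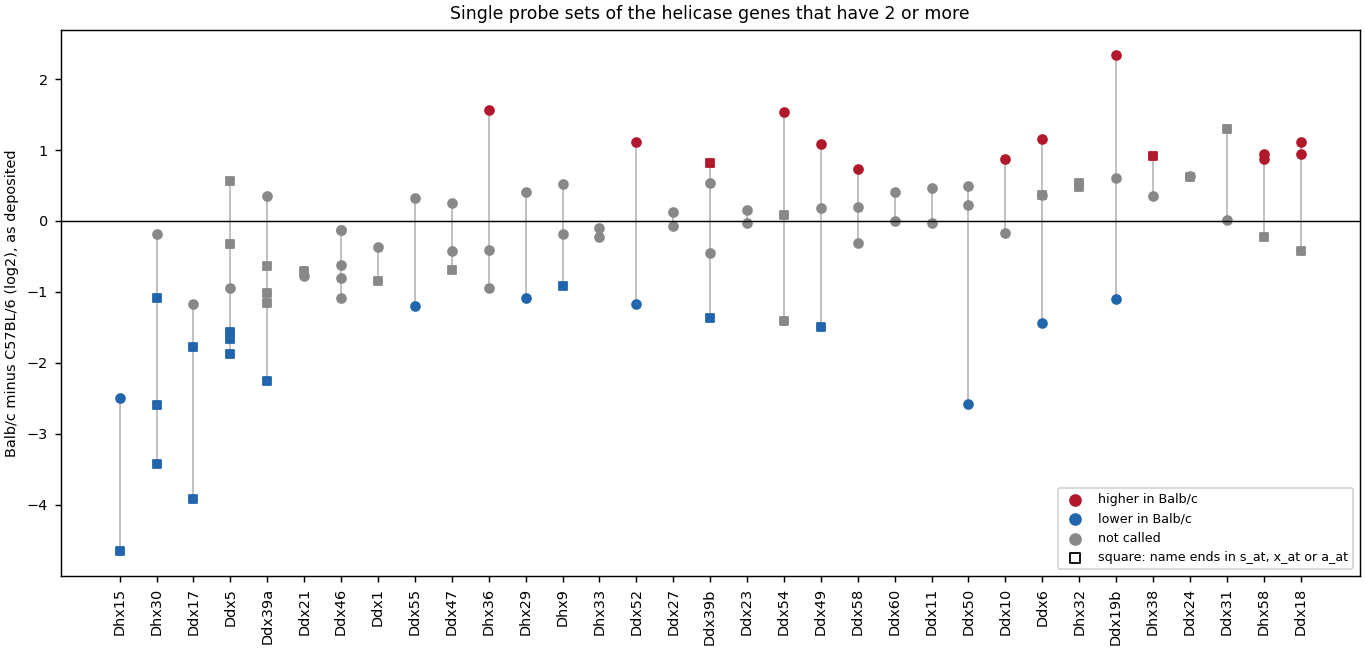
Difference between strains (y axis, log2, Balb/c minus C57BL/6, as deposited) of every probe set of the 33 helicase genes with 2 or more, ordered by their median; red and blue mark calls higher and lower in Balb/c, and squares mark identifiers that end in s_at, x_at or a_at. The Dhx15 sets lie at -4.65 and -2.49, while Ddx19b, Ddx39b, Ddx49, Ddx52 and Ddx6 hold a red and a blue point each.

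The calls also depended on the scaling and the batch. After quantile normalisation, which set the median gene at 0.095, 11 helicases were called, 5 higher and 6 lower, against 29.5% of all genes. Of the 14 calls 10 were shared, all with the same sign: the 5 lower genes and Ddx19b, Ddx28, Ddx18, Dhx37 and Dhx34 among the higher. Dhx58, Dhx8, Ddx51 and Dhx38 were lost, and Ddx55 was added as lower at -0.60 (limma, adjusted p = 0.0343). With each array centred on its median gene the split was 4 higher and 6 lower. That scaling lost Dhx58, Dhx34, Dhx8, Ddx51 and Dhx38 among the higher genes (limma, adjusted p = 0.0571 to 0.103).

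When the fit was blocked on number format, so that only the 4 C57BL/6 columns of the long format stand against the 5 Balb/c columns, all 14 differences kept their sign and 1, that of Dhx15, kept its call. Differences as deposited were then -1.61 for Dhx30 (limma, adjusted p = 0.0543), -1.60 for Ddx17 (limma, adjusted p = 0.0763) and -1.14 for Ddx59 (limma, adjusted p = 0.288). Those of Ddx5, Ddx28 and Ddx51 were -0.87, 0.69 and 0.31 (limma, adjusted p = 0.229, 0.256 and 0.629), those of Ddx19b, Ddx18 and Dhx58 1.09, 0.64 and 1.0 (limma, adjusted p = 0.128, 0.181 and 0.098), and those of Dhx34, Dhx37, Dhx8 and Dhx38 0.71, 1.08, 0.58 and 0.34 (limma, adjusted p = 0.273 to 0.516). Within the long format alone the differences were the same by construction, and 0 of 50 helicases and 0 of all genes passed (limma; 6 helicases and 2367 genes had an unadjusted p under 0.05).

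**Figure D4:**
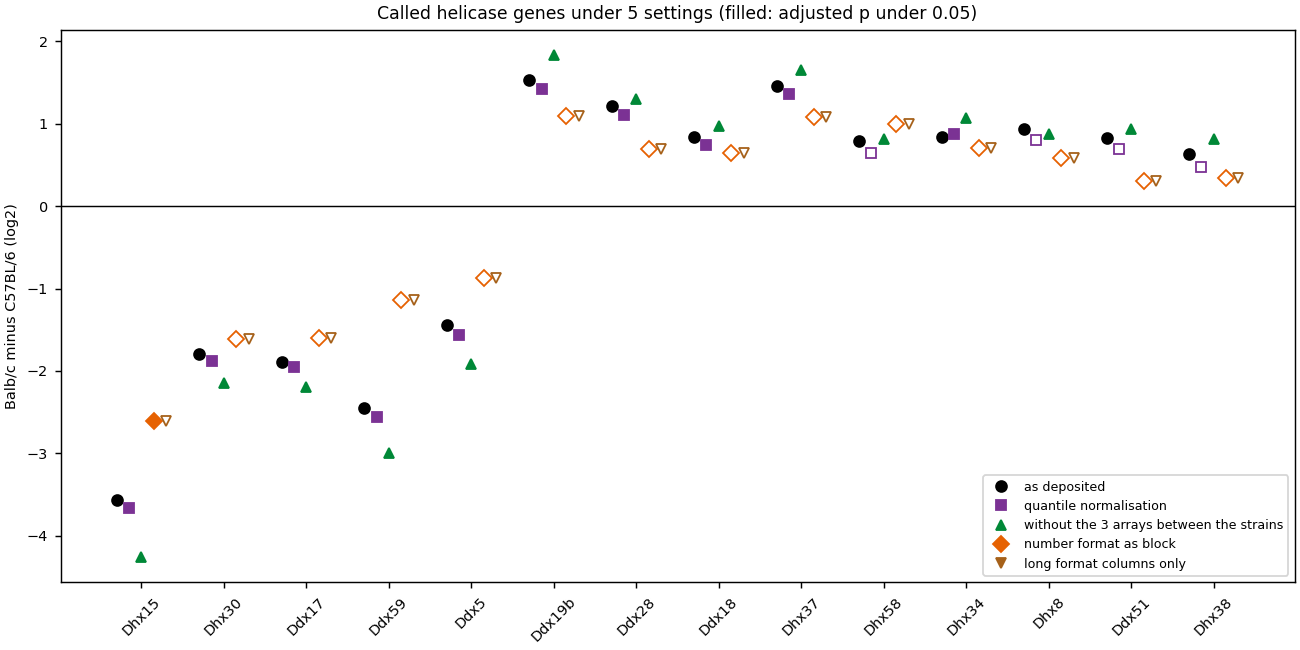
Difference between strains (y axis, log2, Balb/c minus C57BL/6) of the 14 called helicase genes (x axis) under 5 settings, with filled symbols where the adjusted p was under 0.05. Under these 5 settings each gene stays on its side of 0, from -2.61 to -4.26 in Dhx15, and with the number format as a block only the Dhx15 symbol is filled. The brightest probe set is not plotted, and with it Ddx19b (-1.10) and Ddx5 (0.57) cross 0.

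The number of dendrites in a pool was the other variable of the design, and its slope per doubling was fitted with strain as a covariate. The slope was called for 0 of the 50 helicases and 0% of all genes (limma; 1 helicase and 850 genes at an unadjusted p under 0.05). Slopes of the helicases ran from -0.33 to 0.54 with a median of -0.04, and the 3 with the smallest p were Dhx8, Dhx40 and Ddx59. For Dhx8 the means in Balb/c were 6.96 in pools of 100, 8.36 in the pool of 200 and 7.64 in pools of 400, and in C57BL/6 they were 6.15, 6.59 and 6.88 (slope 0.35, SE 0.16, limma, adjusted p = 0.959). The slope of Dhx40 was -0.28 and that of Ddx59 0.54, each at the same adjusted p. The interaction of strain and pool size was called for 0 helicases and 0% of all genes (limma; 1 helicase and 690 genes at an unadjusted p under 0.05), with Ddx31 first at -0.85 (limma, adjusted p = 1).

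The files give no detection call, so levels were set against the 71 genes of olfactory and vomeronasal receptors on the array, whose 95th percentile was taken on each array as a high background mark. This mark had a median of 9.63 on Balb/c arrays and 9.22 on C57BL/6 arrays. Probe sets differ in brightness, so a gene below it may still be present. Dhx34 was above it on all 19 arrays, and 36 of the 50 helicases were above it on 0 arrays. The other 13 were above it on some. On most arrays of both strains the mark was passed by 1 of the 50 helicases, against 4.11% of all genes. Dhx15, Dhx30, Ddx17, Ddx59, Ddx25 and Ddx47 passed it on at least 8 of the 14 C57BL/6 arrays and on at most 1 of the 5 Balb/c arrays. The median array had 1 helicase above the mark in Balb/c and 7 in C57BL/6, and no such count over all genes is given beside these. Of the 9 higher genes, Dhx37 passed it on 1 array and the 7 others beside Dhx34 on 0, so these calls were made at levels that the receptor genes also reach. Of the 5 lower genes, all passed it on 0 Balb/c arrays, and Ddx5 passed it on 1 C57BL/6 array.

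Most markers of cell types also lay below the mark. Of 10 neuronal markers, only Nrgn passed the mark on most arrays of both strains, while Map2, the microtubule protein of dendrites, passed it on 0 arrays in either. Syt1 passed it on 13 C57BL/6 and 2 Balb/c arrays, Gria2 on 9 and 0, and the microglial Tyrobp on 13 and 2. The mean level of the neuronal list ran from 7.32 to 8.10 in Balb/c and from 7.91 to 8.35 in C57BL/6, with 4 genes lower and 1 higher. Of 6 RNAs known to stay in the nucleus, 4 were lower, Malat1 among them at a relative difference of -3.0 (limma, adjusted p = 0.000341), and 1 was higher, with list means of 8.19 to 9.57 in Balb/c and 8.63 to 10.47 in C57BL/6. Malat1, Meg3, Snhg11 and Miat passed the mark on 12, 13, 9 and 9 C57BL/6 arrays and on 0, 1, 0 and 1 Balb/c arrays. Rian passed it on 13 and 5, and Neat1 on 0 in both. The study says that RNA of the soma may be present in its dendrite samples. Of astrocyte markers 2 of 8 were lower, against 11.4% of all genes. Of oligodendrocyte markers 2 of 7 and of microglial markers 2 of 8 were higher, against 21.1% of all genes. The microglial ones were Csf1r and Itgam, with means of 8.71 and 7.64 in Balb/c, against 7.33 and 6.11 in C57BL/6. No microglial marker was called lower, and Tyrobp averaged 9.01 in Balb/c and 9.92 in C57BL/6. The part of these RNAs in the helicase differences was not tested.

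Lists of genes that work with these helicases held 25 calls among 101 measured, 11 higher and 14 lower, or 24.8%, against 32.5% of all genes. The shares of all genes to set beside each list are 21.1% higher and 11.4% lower. With the brightest probe set 36 of the 101 were called, or 35.6%, against 34.6% of all genes. Relative medians of the 8 lists ran from -0.32 in the export partners to 0.22 in the superfamily 1 helicases. Helicases of the same superfamily under other names had 3 of 13 lower and 0 higher. They were Eif4a2, the helicase of the cap-binding complex, at -2.06, Snrnp200, which unwinds the spliceosomal RNA pair, at -1.12, and Ascc3 at -1.11, all relative (limma, adjusted p = 0.00952, 0.0263 and 0.0192). Of 8 superfamily 1 RNA helicases, Mov10, a component of silencing complexes, and Mov10l1 were higher, at 0.82 and 0.45.

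Among 11 partners of the cap-binding and exon junction complexes, Eif4h, Eif4b and Casc3 were lower and Upf2 was higher. Eif4h and Eif4b, which stimulate the unwinding of leaders, averaged 7.10 ± 0.355 and 7.38 ± 0.481 in Balb/c (SD, n = 5), against 8.31 ± 0.397 and 9.19 ± 1.06 in C57BL/6 (SD, n = 14). Of 18 genes of mRNA storage and decay, 3 were lower and 0 higher: G3bp2, a stress granule protein, at -2.27, Pabpc1, which coats poly(A) tails, at -1.56, and Atxn2 at -1.31 (limma, adjusted p = 0.000662, 0.00383 and 0.0109). Of 20 G-patch proteins, a family that includes activators of DEAH box helicases, 5 were higher and 1 lower, against 21.1% and 11.4% of all genes. Rbm17, which recognises splice sites, led the higher ones at 1.45 (limma, adjusted p = 0.000407), followed by Zgpat, Gpatch2 and Gpatch3 at 0.53, 0.73 and 1.0. In the SMN complex, 1 of 6 was lower, Strap at -1.97, and 1 was higher, Gemin5 at 0.65.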

How the data were processed

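RNA from 19 pools of dendrites was measured on Affymetrix mouse arrays, 5 of Balb/c and 14 of C57BL/6, grouped by the labels. The authors deposited 1 log2 value per probe set and array. Their processing notes name RMA 2.0, and their methods take the upper decile of a set's probes. No source names the log base, and 2 was taken from the range of 2.12 to 16.0. Array medians ran from 6.62 to 6.95, so the median centring and range scaling of the methods were not applied in the deposited table. Replicates were not pooled, and no column was left unmapped. The sources used here do not say what sets the number format of a column.

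The platform annotation gave 1 gene symbol to 34945 of 45101 probe sets, several to 932 and none to 9160, beside 64 controls. A total of 34741 with 1 symbol matched RefSeq (GRCm38.p6) by gene identifier, and 0 symbols changed. No build is named for the probes, so they have no coordinates here. Promoter sequences are those of RefSeq.

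Strain was the only term of the fit over all 19 arrays, made in R 4.3.3 by lmFit and eBayes of limma 3.58.1, with no filter on dim genes, and p-values were adjusted by Benjamini-Hochberg over all 18193 genes or 45037 probe sets. The fit was tested on simulated data. Pool size was fitted as the log2 of the number of dendrites. Normalisation, covariates, batch, summaries over probe sets, filters, variance models and the removal of arrays were varied. The number of arrays limits the precision. The members and lists were chosen with earlier results of these data known. Named in full were up to 8 called members with the smallest p in each direction. Every other member was named with its strain means, together with members whose probe sets opposed each other, the 3 with the smallest p where none was called for pool size, and up to 4 called genes of each other list.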

Additional observations from a re-analysis of the deposited data

Results flagged for a closer look

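In each of the 50 helicase genes, the 5 Balb/c arrays were examined for a value far from the other four, by the gap to the nearest array over the whole range. The 14 C57BL/6 arrays were too many for this test. The ratio passed Dixon's 95% value of 0.71 in 5 genes, where chance alone flags about 1 group in 20. In 3 of them the array was the Balb/c pool of 200, 1 of the arrays between the strains. There Ddx5 stood at 8.36, against 6.27 to 6.76 on the other Balb/c arrays (ratio 0.764), Ddx39b at 8.03, against 5.34 to 5.88 (ratio 0.799), and Ddx58 at 6.00, against 6.47 to 6.59 (ratio 0.799). In the other two genes it was the second Balb/c pool of 100, where Dhx37 stood at 10.31, against 6.43 to 7.40 (ratio 0.751), and Ddx18 at 9.21, against 7.98 to 8.32 (ratio 0.723). Ddx5 and Ddx18 kept their calls in every fit that left out 1 array, and Dhx37 lost its call without that pool.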

How the results depend on the processing

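Of the 14 helicase calls, 8 (Dhx15, Dhx30, Ddx17, Ddx59, Ddx5, Ddx19b, Ddx28 and Ddx18) were kept in every fit that left out 1 array, and the count then ran from 9 (without Balb/c 400 dendrites replicate 1) to 17 (without C57BL/6 200 dendrites replicate 1). Blocking on the number format left 1, the long format alone 0. The count was 7 in pools of 100 only (11.5% of all genes called), 9 in pools of 400 only (17.0%), 9 with a variance per strain (23.7%), and 22 both with the brightest probe set of each gene (34.6%) and without the 3 arrays between the strains (43.6%). Over the other settings, apart from the replicate block below, it lay between 10 and 15. The 25 calls on the 8 partner lists became 1 with the format block, 0 within the long format and 10 in pools of 100, 36 with the brightest probe set and 37 without the 3 arrays, and ran from 16 to 29 with 1 array left out. Numbers in the labels did not pair the arrays: deviations of arrays with the same size and number correlated at -0.189 to 0.071, and an array never correlated best with its own number. With the pool size and number as a replicate block, 0 helicases, 0 partner genes and 0 of all genes were called (limma; 8 helicases and 3331 genes at an unadjusted p under 0.05), and the slope with pool size had 0 calls with the replicate number as a block and under each other setting. With the brightest probe set, 12 members changed sign, 5 of them without a call in either setting (Ddx10, Ddx11, Ddx23, Ddx39a and Dhx29). The others were Ddx19b (-1.10), Ddx5 (0.57), Ddx39b (0.82), Ddx49 (1.09), Ddx52 (1.11), Ddx54 (1.53) and Dhx36 (1.56). The difference of Ddx54 was also 1.53 without shared probe sets, because the only set then left is its brightest. On this set the first Balb/c pool of 100 stood at 11.53, and the other Balb/c arrays at 7.46 to 9.09. Members above the receptor mark on most arrays of both strains were 1 at the 95th percentile and 4 at the 90th. The brightness of the probe sets limits what can be said of members under the mark.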
